A study of Mus musculus with 2 samples.

Results

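The genes examined here are 47 genes of mitosis and cytokinesis, the division of the chromosomes and then of the cell, in mouse muscle stem cells (MuSC). They were taken as a fixed list of symbols and matched to the Ensembl gene IDs of the count tables. All 47 were listed in both short-read tables, among 20830 genes in the table of the 10% aliquot and 26997 genes in that of the 90% aliquot. Mice aged 3 months, Pax7creERT2 R26-eYFPfl/fl on a C57BL6 background, received tamoxifen (20 mg/ml) daily for 5 days, so that cells in which the Pax7 promoter was active, and their progeny, carried YFP. YFP-positive cells were sorted from uninjured hindlimb muscle and from muscle taken 72 h after injection of 1.2% barium chloride, a toxic injury that calls stem cells into division. Both were loaded in 1 Chromium 3′ capture, which was split after reverse transcription into aliquots of 10% and 90% of the droplets. Both aliquots have short reads and the 10% aliquot also has nanopore long reads, while the tables carry no label of injury, animal or muscle for a barcode. The number of animals is not stated.

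Each aliquot is 1 sample, so no test between conditions was possible, and the intervals given are 95% intervals that cover counting error only. Barcodes were compared in 2 classes. Shallow barcodes had 3000 to 15000 UMIs (unique molecular identifiers, 1 per captured RNA molecule) and 0 UMIs of Rrm2, and deep barcodes had at least 20000 UMIs. The 10% aliquot held 163 shallow and 79 deep barcodes, with 1158828 and 5099209 UMIs and medians of 6664 and 65499 UMIs per barcode. The 90% aliquot held 1272 and 606, with 6646214 and 29875734 UMIs and medians of 4685.5 and 47106. Rrm2, a subunit of the enzyme that makes deoxynucleotides for replication, set the shallow class and is no result here, and the same holds for depth. The 8 markers of quiescent satellite cells summed to 1066 counts per 1000000 UMIs (CPM) in the shallow and 101 CPM in the deep barcodes of the 10% aliquot, and to 1339 and 110 CPM in the 90% aliquot. The 7 markers listed for activated cells did not mirror this as a sum, at 1396 and 1428 CPM and at 1535 and 1836 CPM. Rrm2, at 0 in shallow barcodes by rule, gave 133 and 240 CPM of the deep sums. With Rrm2 among them, 4 of 6 and 5 of 7 compared were at least 2-fold higher in deep barcodes and 2 lower in each. Over all genes compared, 30.1% and 29.2% were that much higher and 16.5% and 19.5% lower. Tubb5 went from 93.2 to 686 CPM and from 105 to 886 CPM, and Cdk4 from 52.6 to 374 CPM and from 54.3 to 380 CPM. Myod1, the myogenic factor of that list, was at 1065 CPM in shallow and 185 CPM in deep barcodes of the 10% aliquot and at 1057 and 213 CPM in the 90% aliquot.

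The 2 tables were not separate cells throughout. They shared 634 barcodes, and 263 of the 269 barcodes with at least 3000 UMIs in the 10% table also had at least 3000 UMIs in the 90% table. For 99.6% of those the best match in the 90% table was the same barcode, with a median correlation of 0.910 with itself and 0.564 with other barcodes. The 90% aliquot was therefore also read without the shared barcodes, which left 1022 shallow and 399 deep barcodes.

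Mitosis begins when the kinase Cdk1, bound to A- and B-type cyclins, phosphorylates the machinery that condenses chromosomes and builds the spindle. The spindle checkpoint holds the anaphase-promoting complex inactive until every kinetochore is attached, after which Cdc20 lets the complex tag securin and the B cyclins for destruction, and a ring at the cell equator completes cytokinesis. Satellite cells of resting muscle sit outside the cycle and enter it after injury, and the genes of this machinery are transcribed together, late in the cycle, in dividing cells.

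The upstream sequences of these genes are shown first. Whether their letters bear on the levels or the co-variation of the members was not tested. RefSeq windows of 300 bases on GRCm38.p6, from 250 bases before to 50 bases after the start site, were found for 41 of the 47 genes (44 windows). A pair of motifs was searched on both strands. The letters CCAAT are the box read by the factor NF-Y, which the opposite strand shows as ATTGG. The letters TTTGAA are the cell cycle genes homology region (CHR) read by MuvB complexes, and its other form TTTAAA was counted with it. The opposite strand shows the first form as TTCAAA, whereas the second form reads the same on both. A match of one can overlap a match of the other by 1 base. CCAAT was in 36 windows (81.8%) and the CHR letters in 38 (86.4%), with both in 34 (77.3%). Among all 32851 windows the shares were 37.4%, 27.6% and 10.7%, and among the 30 windows of the replication list used below they were 53.3%, 23.3% and 13.3%. A CHR match lay within 50 bases of the start in 32 member windows (72.7%), against 8.28% of all windows. The windows of 4 genes with both motifs and of 1 gene with neither follow, with matches in capitals. They are Ccnb1 (chr13:100786437-100786736, minus strand), Ccnb2 (chr9:70421505-70421804, minus), Cdc20 (chr4:118437294-118437593, minus), Plk1 (chr7:122159185-122159484, plus) and Pttg1 (chr11:43425932-43426231, minus).
Ccnb1: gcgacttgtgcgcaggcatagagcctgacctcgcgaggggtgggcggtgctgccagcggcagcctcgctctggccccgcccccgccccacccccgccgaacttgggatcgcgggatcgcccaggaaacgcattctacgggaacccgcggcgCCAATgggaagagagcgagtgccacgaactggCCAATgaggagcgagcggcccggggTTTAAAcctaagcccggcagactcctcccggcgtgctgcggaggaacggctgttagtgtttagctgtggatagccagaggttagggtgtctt
Ccnb2: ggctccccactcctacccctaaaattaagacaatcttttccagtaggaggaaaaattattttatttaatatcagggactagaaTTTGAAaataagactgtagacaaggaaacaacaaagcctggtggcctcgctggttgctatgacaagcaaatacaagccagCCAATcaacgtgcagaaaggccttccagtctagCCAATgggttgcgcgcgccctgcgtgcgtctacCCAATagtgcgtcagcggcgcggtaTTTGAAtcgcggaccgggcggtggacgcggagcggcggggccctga
Cdc20: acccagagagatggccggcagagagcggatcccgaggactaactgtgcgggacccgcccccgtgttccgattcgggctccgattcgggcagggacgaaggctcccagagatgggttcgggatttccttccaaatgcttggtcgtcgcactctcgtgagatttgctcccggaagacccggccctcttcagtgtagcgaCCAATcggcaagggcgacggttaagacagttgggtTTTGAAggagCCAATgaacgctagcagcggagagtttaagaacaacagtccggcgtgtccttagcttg
Plk1: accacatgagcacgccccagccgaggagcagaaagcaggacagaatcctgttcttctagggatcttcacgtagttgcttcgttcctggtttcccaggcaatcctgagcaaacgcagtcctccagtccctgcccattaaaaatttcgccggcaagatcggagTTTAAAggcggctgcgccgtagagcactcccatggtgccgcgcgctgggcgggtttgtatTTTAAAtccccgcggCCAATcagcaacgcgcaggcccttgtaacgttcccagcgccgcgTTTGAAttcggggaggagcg
Pttg1: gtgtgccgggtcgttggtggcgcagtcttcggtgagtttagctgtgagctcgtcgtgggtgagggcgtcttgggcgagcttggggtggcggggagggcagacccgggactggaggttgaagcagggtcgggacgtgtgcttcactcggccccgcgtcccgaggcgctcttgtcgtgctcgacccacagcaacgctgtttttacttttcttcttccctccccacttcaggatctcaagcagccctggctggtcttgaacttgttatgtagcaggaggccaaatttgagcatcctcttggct
The start sites are at base 251 of each line.

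Ccnb1 and Cdc20 each hold 2 CCAAT boxes and 1 CHR match, Ccnb2 holds 3 and 2, and Plk1 holds 1 and 3. The windows of Mad2l1, Pttg1, Nusap1 and Ncaph held neither motif. For Pttg1 the RefSeq start used lies 270 bases inside the 5′ end of its most counted long-read isoform (chr11:43420250-43426251), so the printed window does not reach that end. A match describes letters in a window and not a bound site, and an absent match says only that the letters are not in that window.

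Nearly all of the 47 genes were higher in deep than in shallow barcodes. Their UMIs summed to 306 CPM in the shallow and 2370 CPM in the deep barcodes of the 10% aliquot, a ratio of 7.74 (6.96 to 8.62), and to 320 and 2514 CPM in the 90% aliquot, a ratio of 7.86 (7.53 to 8.21). Without the shared barcodes the 90% values were 326 and 2441 CPM and the ratio was 7.48 (7.13 to 7.86). A level at least 2-fold higher in deep barcodes was found for 45 of 47 members in the 10% aliquot, where 30.1% of the 10110 genes compared passed, and for 46 of 47 in the 90% aliquot, where 29.2% of 14956 passed. The count was again 46 without the shared barcodes, with 29.5% of 13846 genes passing. No member was 2-fold lower, against 16.5%, 19.5% and 19.1% of the genes compared. The median ratio of the members was 7.58 in the 10% aliquot, 12 in the 90% aliquot and 9.54 without the shared barcodes, while the medians over all genes compared were 1.22, 1.19 and 1.19. Members with 0 shallow UMIs (7, 2 and 2 of the 47) enter these medians and counts at a lower bound, taken against 3 UMIs, and the medians of 7.58 and 9.54 are themselves such bounds (those of Nusap1 and Ttk). The whole 95% interval of the ratio lay at 2 or above for 33, 45 and 45 members. All 47 members passed the filter of 20 UMIs over both classes in each set, through the deep barcodes for most of them.

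The rule itself moved these sizes, because barcodes with Rrm2 were left out of the shallow class. When every barcode of 3000 to 15000 UMIs was kept, the summed ratios were 5.17 and 5.78, with 43 and 46 members at least 2-fold higher. The 15 and 119 barcodes of that depth with Rrm2 held 2033 and 1366 CPM of the members, and against them alone the ratios were 1.17 and 1.84, with 3 and 17 members at least 2-fold higher. Depth and the level of these genes did not go in step. Barcodes of 15001 to 19999 UMIs, which belong to neither class, held 3464 CPM (12 barcodes) and 3094 CPM (42 barcodes), above the deep classes. In the deep class of the 90% aliquot the level was 2427 CPM at 20000 to 29999 UMIs, 2227 CPM at 30000 to 49999 and 2730 CPM at 50000 and over.

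Free RNA can place UMIs of these genes in barcodes that do not express them. Barcodes under 500 UMIs held 1630 CPM of the members in the 10% aliquot and 1000 CPM in the 90% aliquot, above the 306 and 320 CPM of the shallow barcodes. The part of free RNA in the shallow values was not tested. Within the shallow class the UMIs were unevenly spread. In the 10% aliquot 57 of 163 shallow barcodes had no member UMI and the top 10 barcodes held 40.8% of the 355 member UMIs. In the 90% aliquot 499 of 1272 had none and the top 10 held 18.2% of 2126. Immune cell markers moved the other way, from 335 CPM (shallow) to 107 CPM (deep) and from 297 to 5.82 CPM, and of the 10 listed markers 8 could be compared in each aliquot, of which 4 and 8 were at least 2-fold lower and 3 and 0 at least 2-fold higher. Schwann cell markers went from 81.1 to 1.76 CPM and from 4.66 to 1.31 CPM, endothelial markers from 12.9 to 6.08 CPM and from 11.9 to 6.56 CPM, and muscle fibre markers from 65.6 to 39.0 CPM and from 91.3 to 73.5 CPM. Fibroadipogenic markers went from 31.9 to 47.9 CPM and from 56.0 to 24.5 CPM. The part of these other cells in the member ratios was not tested. Without barcodes marked by at least 4 immune genes and no myogenic UMIs the summed member ratios were 7.77 and 7.84. That left out 1 shallow and 1 deep barcode in the 10% aliquot and 8 and 0 in the 90% aliquot, too few to move the ratios much.

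**Figure D1:**
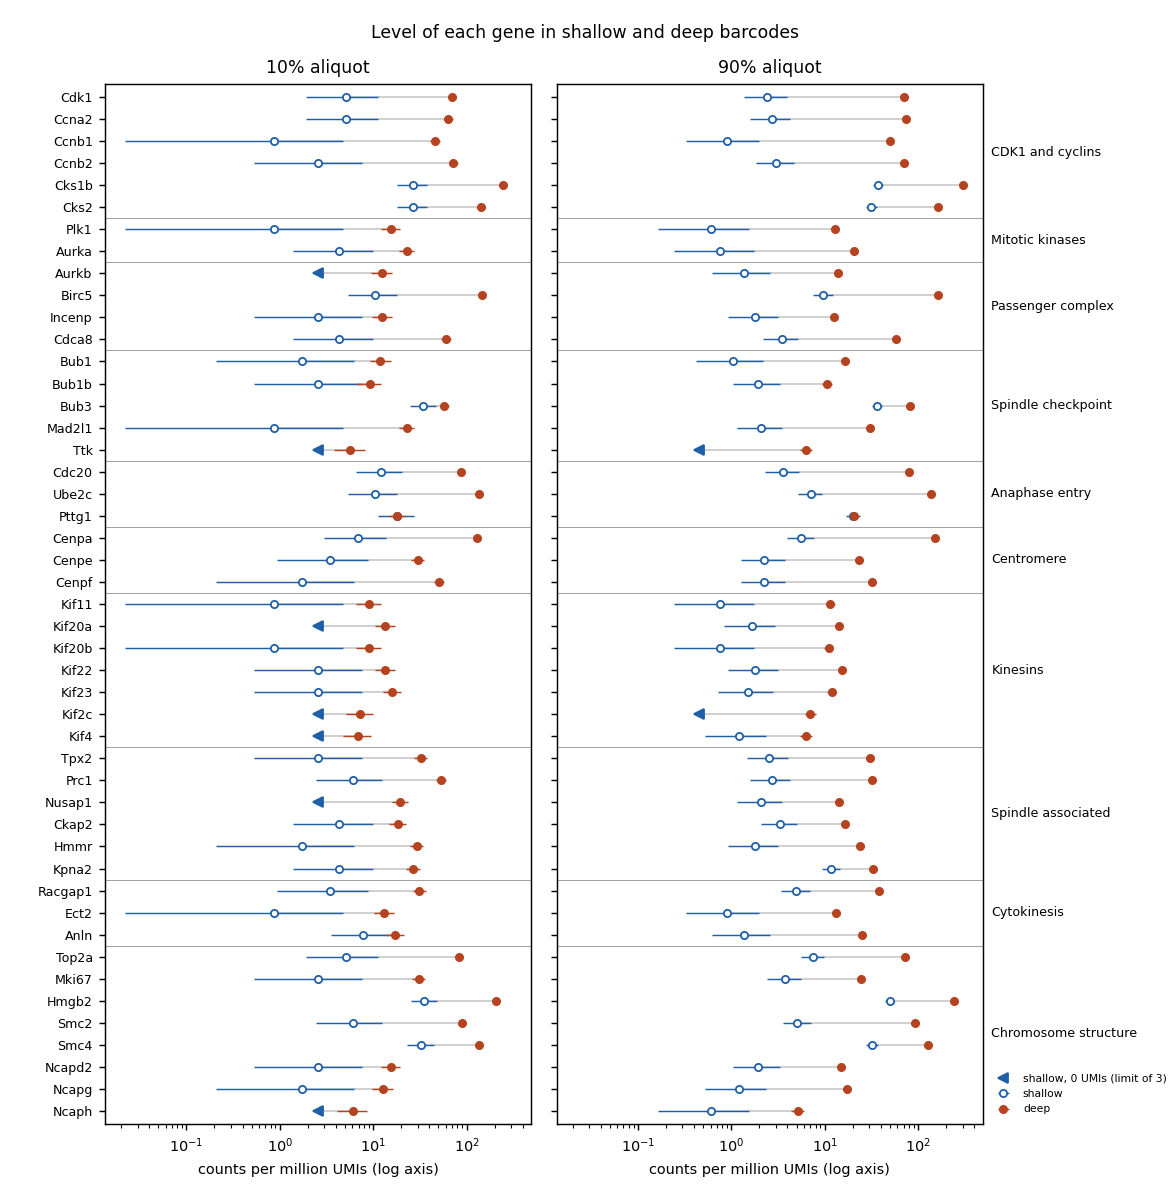
Level of each of the 47 genes in CPM (log axis) in shallow (open blue) and deep (filled red) barcodes of the 10% aliquot (left) and the 90% aliquot (right), grouped by role, with bars for 95% Poisson intervals and blue triangles at 3 UMIs for genes at 0 in shallow barcodes. The red points lie to the right of the blue ones for all genes but Pttg1, whose points coincide in both aliquots.

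Cdk1, the cyclins and their partners held the highest single ratio and, by UMIs on each gene's own ID, the highest level of the 47 genes. Cdk1, the kinase that drives entry into mitosis, was at 5.18 CPM in shallow and 69.8 CPM in deep barcodes of the 10% aliquot and at 2.41 and 70.6 CPM in the 90% aliquot, ratios of 13.5 (6.13 to 37.0) and 29.3 (18.0 to 51.4). Ccnb1, cyclin B1, had 1 UMI in shallow and 236 in deep barcodes of the 10% aliquot and 6 and 1489 in the 90% aliquot, which is 0.863 and 46.3 CPM and 0.903 and 49.8 CPM. Its ratios of 53.6 (9.53 to 2127) and 55.2 (25.3 to 151) were the highest of the 47 in both aliquots, and the lower bounds are the firmer values since few shallow UMIs stand behind them. Ccnb2, the other B-type cyclin, went from 2.59 to 72.6 CPM and from 3.01 to 69.9 CPM, and Ccna2, cyclin A2, from 5.18 to 63.7 CPM and from 2.71 to 74.9 CPM. The small Cdk-binding proteins behaved otherwise, since they were already counted in shallow barcodes. Cks1b stood at 26.8 and 37.6 CPM there and at 248 and 306 CPM in deep barcodes, with ratios of 9.26 (6.49 to 13.7) and 8.14 (7.18 to 9.27). Its deep level was the highest of all members by UMIs on their own gene IDs. Cks2 stood at 26.8 and 31.6 CPM and at 144 and 164 CPM, with ratios of 5.37 and 5.19. Each UMI marks the 3′ end of 1 molecule, so these levels were not divided by transcript length.

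The mitotic kinases were low in level but far apart between the classes. Plk1, the polo-like kinase of spindle and centrosome maturation, had 1 and 79 UMIs in shallow and deep barcodes of the 10% aliquot and 4 and 389 in the 90% aliquot, ratios of 18.0 (3.13 to 718) and 21.6 (8.38 to 79.8). Aurka, the kinase of the spindle poles, went from 4.31 to 22.9 CPM and from 0.752 to 20.8 CPM, ratios of 5.32 (2.22 to 16.7) and 27.7 (11.8 to 85.5). The deep levels of Aurka were close in the 2 aliquots, and its shallow levels rest on 5 UMIs in each.

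The 4 genes of the chromosomal passenger complex, which corrects kinetochore attachments and later marks the division plane, were all at least 4-fold higher in deep barcodes. Birc5, survivin, led them with 10.4 and 145 CPM in shallow and deep barcodes of the 10% aliquot and 9.63 and 162 CPM in the 90% aliquot, ratios of 14.0 (7.97 to 27.2) and 16.8 (13.1 to 21.8). Cdca8, borealin, had ratios of 14.0 and 16.9 and deep levels of 60.4 and 58.6 CPM. Aurkb, the kinase of the complex, was at 0 UMIs in the shallow barcodes of the 10% aliquot and at 63 UMIs in the deep ones, at least 4.77-fold higher against a limit of 3 UMIs (95% lower bound 3.77). In the 90% aliquot it had 9 and 416 UMIs, a ratio of 10.3 (5.36 to 22.6). Incenp, the scaffold, had ratios of 4.85 (1.59 to 24.1) and 7.03 (3.98 to 13.7).

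The spindle checkpoint genes were the least uniform group, with a summed ratio of 2.71 (2.01 to 3.75) in the 10% aliquot and 3.51 (3.11 to 3.98) in the 90% aliquot, the lowest of the 10 roles in both. Bub3 carried that value. It was at 34.5 and 57.9 CPM in shallow and deep barcodes of the 10% aliquot and at 36.4 and 81.5 CPM in the 90% aliquot, ratios of 1.68 (1.20 to 2.39) and 2.24 (1.96 to 2.57). Bub3, the partner that carries the Bub1 and BubR1 proteins to kinetochores, held most of the checkpoint UMIs of the shallow class, 40 of 46 and 242 of 276. Mad2l1, which encodes the inhibitor of Cdc20, had 1 and 117 UMIs in the 10% aliquot and 14 and 912 in the 90% aliquot, ratios of 26.6 (4.68 to 1059) and 14.5 (8.59 to 26.6). Ttk, the kinase that starts the checkpoint signal, had 0 UMIs in both shallow classes and 29 and 189 in the deep ones, at least 2.20-fold and at least 14.0-fold higher against a limit of 3 UMIs. The 95% lower bounds of these ratios were 1.68 and 11.3, so 2-fold was not secured for Ttk in the 10% aliquot. Bub1 and Bub1b, which encodes BubR1, had ratios of 6.93 and 3.56 in the 10% aliquot and 15.9 and 5.42 in the 90% aliquot.

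Among the genes of anaphase entry, 2 were far apart between the classes and 1 was not. Cdc20, the activator of the anaphase-promoting complex, went from 12.1 to 87.9 CPM and from 3.61 to 80.8 CPM, ratios of 7.27 (4.29 to 13.4) and 22.4 (15 to 35.0). Ube2c, the ubiquitin-conjugating enzyme of the complex, went from 10.4 to 135 CPM and from 7.07 to 137 CPM, ratios of 13 (7.40 to 25.3) and 19.4 (14.6 to 26.5). Pttg1, securin, the inhibitor of the protease that opens cohesin rings, was at 18.1 CPM in shallow and 18.0 CPM in deep barcodes of the 10% aliquot and at 20.3 and 20.4 CPM in the 90% aliquot. Its ratios were 0.996 (0.615 to 1.68) and 1.01 (0.833 to 1.22), and 1.01 without the shared barcodes. Pttg1 was the only member under a 2-fold difference in both aliquots. Bub3 was under it in the 10% aliquot alone.

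The 3 centromere genes had the highest summed ratio of any role in the 10% aliquot, 17.4 (10.3 to 31.9), and 20.5 (16.1 to 26.5) in the 90% aliquot. Cenpa, the histone H3 variant that marks centromeres, was at 6.90 and 129 CPM and at 5.57 and 151 CPM in shallow and deep barcodes of the 2 aliquots, ratios of 18.7 (9.46 to 43.6) and 27.1 (19.7 to 38.6). Cenpf, a kinetochore protein of late cycle, had ratios of 29.2 (8.00 to 242) and 14.3 (8.61 to 25.6). Cenpe, a kinetochore motor, had ratios of 8.69 (3.33 to 32.3) and 10.3 (6.21 to 18.5). Cenpf was among the members whose deep levels differed most between aliquots, at 50.4 and 32.2 CPM.

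The 7 kinesins, motors of spindle assembly, chromosome movement and the midzone, were all low in level, at 6.86 to 16.1 CPM in deep barcodes of the 10% aliquot and 6.29 to 15.2 CPM in the 90% aliquot. Their summed UMIs went from 8 to 384 and from 51 to 2311, ratios of 10.9 (5.48 to 25.4) and 10.1 (7.64 to 13.6). Kif20a, Kif2c and Kif4 had 0 UMIs in the shallow barcodes of the 10% aliquot, and Kif2c, a depolymerase of microtubule ends, also had 0 in those of the 90% aliquot against 210 in deep barcodes, at least 15.6-fold higher against 3 UMIs (95% lower bound 12.6). Kif11, the motor that pushes the spindle poles apart, had ratios of 10.5 (1.78 to 422) and 15.3 (6.50 to 47.4). Kif20b shifted most when the shared barcodes were left out, with a ratio of 14.6 with them and 25.7 without them. It was the largest shift of the 45 members with UMIs in both shallow sets, of which 44 moved by less than 1.5 times. Few shallow UMIs stand behind these ratios, since all 7 kinesins together had 51 with the shared barcodes and 41 without them.

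The genes of spindle-associated proteins had summed ratios of 9.49 (6.23 to 15.2) and 6.22 (5.32 to 7.33). Tpx2, the activator of Aurka on the spindle, went from 2.59 to 32.4 CPM and from 2.56 to 30.6 CPM, ratios of 12.5 and 12. Hmmr, a spindle-pole protein, had ratios of 16.9 (4.61 to 141) and 13.2 (7.50 to 25.6). Prc1, the crosslinker of the midzone, had ratios of 8.86 and 12, and its deep levels of 53.5 and 32.4 CPM were the widest apart of the 47 between aliquots, by 1.65 times. The 95% intervals of the deep levels of the 2 aliquots overlapped for 34 of 47 members. Kpna2, an importin that carries spindle factors, had class ratios of 6.27 (2.62 to 19.6) and 2.82 (2.24 to 3.60), with overlapping intervals and 5 shallow UMIs behind the first. Nusap1 had 0 and 100 UMIs in the 10% aliquot and 14 and 423 in the 90% aliquot, where the ratio was 6.72 (3.96 to 12.4). Ckap2 had ratios of 4.27 and 5.04.

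The cytokinesis genes encode the centralspindlin subunit Racgap1, the exchange factor Ect2 that it recruits to activate RhoA, and the ring scaffold anillin (Anln). Racgap1 went from 3.45 to 31.2 CPM and from 4.97 to 37.8 CPM, ratios of 9.03 (3.46 to 33.6) and 7.60 (5.38 to 11.1). Ect2 had ratios of 15.2 (2.64 to 610) and 14.7 (6.69 to 40.3). Anln differed between aliquots, with 7.77 and 17.3 CPM in the 10% aliquot and 1.35 and 25.1 CPM in the 90% aliquot, ratios of 2.22 (1.12 to 5.02) and 18.5 (9.71 to 40.7), from 9 shallow UMIs in each.

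The 8 genes of chromosome structure had summed ratios of 6.75 (5.53 to 8.33) and 5.89 (5.46 to 6.37). Top2a, the topoisomerase that untangles sister chromatids, went from 5.18 to 82.2 CPM and from 7.52 to 72.7 CPM, ratios of 15.9 and 9.67. Smc2, shared by the condensin complexes, had ratios of 14.8 (7.13 to 37.0) and 18.3 (13.1 to 26.5), whereas its partner Smc4, with 32.8 and 32.2 CPM already in shallow barcodes, had ratios of 4.18 (3.02 to 5.96) and 4.01 (3.49 to 4.63). Hmgb2, a DNA-bending protein of proliferating cells, had 209 and 245 CPM in deep barcodes and ratios of 5.90 (4.32 to 8.27) and 4.91 (4.40 to 5.49). By UMIs on its own gene ID it was the second most counted member. Mki67, which encodes the Ki-67 coat protein of mitotic chromosomes, went from 2.59 to 30.8 CPM and from 3.76 to 24.6 CPM. The condensin I subunits Ncapd2, Ncapg and Ncaph were at 5.12 to 17.3 CPM in deep barcodes, and Ncaph had 0 and 4 UMIs in the shallow classes.

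Because a deep barcode shows more genes by depth alone, every barcode was also thinned to 3000 UMIs. As counted, Ccnb1 had a UMI in 0.613% of shallow and 53.2% of deep barcodes of the 10% aliquot and in 0.393% and 52.5% in the 90% aliquot. After thinning the shares were 0.613% (0.0155% to 3.37%) and 11.4% (5.34% to 20.5%), and 0.236% (0.0487% to 0.688%) and 12.9% (10.3% to 15.8%). The thinned share was higher in deep barcodes for 46 of 47 members in the 10% aliquot and for 47 of 47 in the 90% aliquot, and the intervals of the 2 classes lay apart for 19 and 45 of them. In the 90% aliquot the intervals overlapped for Pttg1, at 4.80% and 4.95%, and for Kpna2. Over the members the median thinned share was 0.613% in shallow and 7.59% in deep barcodes of the 10% aliquot, and 0.550% and 6.60% in the 90% aliquot. Ttk and Kif2c were seen in 0 of 163 and 0 of 1272 shallow barcodes, which allows shares of up to 1.84% and 0.236% of barcodes with a UMI when 3 barcodes are taken as the limit. The Clopper-Pearson upper bound in the 10% aliquot was 2.24%. At 3000 UMIs 57.7% (49.7% to 65.4%) of shallow and 12.7% (6.24% to 22.0%) of deep barcodes of the 10% aliquot showed no member, and 52.4% (49.6% to 55.1%) and 5.94% (4.20% to 8.13%) did in the 90% aliquot. A deep barcode showed a median of 4 and 5 different members in the 2 aliquots, and a shallow one a median of 0 in both.

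Other genes of the same machinery were counted from lists by function, to be read beside the 30.1% and 29.2% of all genes compared that were at least 2-fold higher. Of 22 further kinetochore genes, 15 of 20 compared in the 10% aliquot and 18 of 22 in the 90% aliquot were at least 2-fold higher in deep barcodes, and 0 and 1 were at least 2-fold lower. Spc24, of the Ndc80 complex, was at 9.49 and 87.3 CPM in shallow and deep barcodes of the 10% aliquot and at 5.87 and 99.7 CPM in the 90% aliquot, while Zwint, another kinetochore gene, was at 44.0 and 34.3 CPM and at 47.1 and 42.3 CPM. Of 22 spindle genes 16 of 19 and 21 of 22 were higher and 0 lower, led in level by Tuba1b, an alpha-tubulin, at 123 and 870 CPM and at 101 and 1029 CPM. Of 26 regulators of mitotic entry 16 of 23 and 17 of 26 were higher and 1 and 2 lower, and Cdca3 went from 11.2 to 82.2 CPM and from 4.97 to 91.0 CPM.

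The subunits of the anaphase-promoting complex and of cohesin, which are not restricted to mitosis, were mostly under 2-fold, and their counts lay nearer to the share over all genes. For the complex 5 and 7 of 16 genes were at least 2-fold higher, with median ratios of 1.8 and 1.93, and Anapc5 had ratios of 1.70 and 1.49. For cohesin and its regulators 5 of 13 and 6 of 14 were higher and 1 was lower in each aliquot. Nipbl, the cohesin loader, was at 129 and 42.0 CPM and at 120 and 43.1 CPM in shallow and deep barcodes, ratios of 0.326 and 0.360. Of the 30 replication genes, 28 were at least 2-fold higher in each aliquot, with median ratios of 7.20 and 9.07, beside 7.58 (a lower bound) and 12 for the 47 members. Of those 30, 1 gene was at 0 in the shallow barcodes of the 10% aliquot and entered at its bound.

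Co-variation was read within deep barcodes, each thinned to 20000 UMIs, as the mean of 10 draws. A deep barcode held a median of 36 member UMIs per 20000 in the 10% aliquot and 43.2 in the 90% aliquot, with ranges of 1.90 to 431 and 2 to 441. The deep class was thus no uniform population of dividing cells, since 13 of 79 and 63 of 606 barcodes held under 10 member UMIs while 7.59% in each aliquot held 100 or more. The barcode with the highest share of member UMIs was the same in both tables. As counted it had 586 member UMIs of 27164 in the 10% aliquot (2.16%) and 489 of 22284 in the 90% aliquot (2.19%), and showed 44 of the 47 genes in each. Ube2c and Cdc20 led it, with 47 and 45 UMIs in the 10% aliquot and 42 each in the 90% aliquot. It also held most of the 997 member UMIs that the 9 barcodes of 20000 to 29999 UMIs had in the 10% aliquot. Over the 76 barcodes that were deep in both tables the share of UMIs from the members correlated at 0.987 between the tables (Spearman, a description of shared barcodes and not of separate cells).

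**Figure D2:**
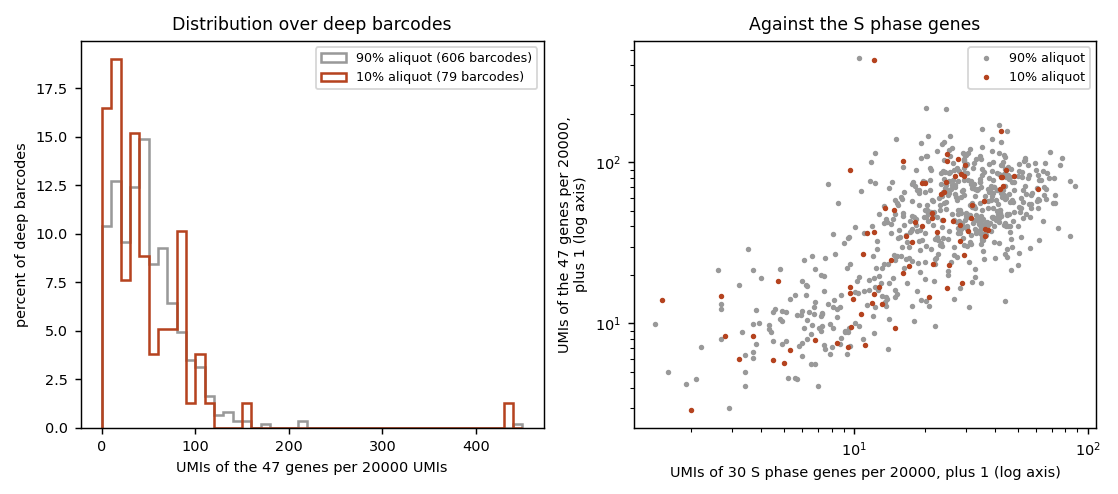
Left, percent of deep barcodes by member UMIs per 20000 UMIs, in bins of 10, for the 10% aliquot (79 barcodes, red) and the 90% aliquot (606 barcodes, grey). Right, member UMIs against UMIs of 30 replication genes per 20000 UMIs, both plus 1 on log axes, 1 point per barcode. Most barcodes lie below 100 member UMIs, and the highest point of each aliquot, at 431 and 441, has few replication UMIs.

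Each member was correlated with the sum of the other 46 over these barcodes (Spearman). All points come from 1 capture at 1 depth, so the values are descriptions. The median over members was 0.443 in the 10% aliquot, 0.399 in the 90% aliquot and 0.395 without the shared barcodes. A correlation of at least 0.3 was reached by 39, 40 and 41 of the 47 members, against 7.42%, 4.17% and 4.24% of the 5446, 5678 and 5659 genes seen in at least 20% of the barcodes. The 2 sets are unlike, since only 31, 33 and 32 members were seen that often, and these are counted among those genes. Their median correlations were 0.523, 0.463 and 0.464. Of the 1081 pairs of members, 1067 and 1070 had a correlation above 0, with medians of 0.25 and 0.197.

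Hmgb2 followed the others most closely, at 0.81 in the 10% aliquot and 0.77 in the 90% aliquot, and Birc5 came next at 0.80 and 0.72. Ube2c (0.70 and 0.67), Ccna2 (0.68 and 0.64), Cdc20 (0.73 and 0.63), Ccnb1 (0.61 and 0.63), Cdca8 (0.74 and 0.61) and Cdk1 (0.72 and 0.59) came next by rank in the 90% aliquot. In the 10% aliquot Cenpf (0.65), Tpx2 (0.62) and Cks2 (0.61) stood above Ccnb1. Several of the weakest members, such as Ncaph (0.23 and 0.18), Kif4 (0.23 and 0.26) and Ttk (0.34 and 0.26), had a UMI in under 10% of the thinned barcodes. Ccnb2 was seen in 56.8% and 60.8% of barcodes, more than Ccnb1 (37.1% and 37.8%), and correlated at 0.43 and 0.32 only. Pttg1 was seen in 28.4% and 30.4% and had the lowest value in both, 0.22 and 0.02. The closest pairs were Birc5 with Hmgb2, at 0.72 and 0.61, and, in the 90% aliquot, Ccna2 with Hmgb2 (0.56), Birc5 with Ube2c (0.55) and Ccnb1 with Cdc20 (0.55).

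**Figure D3:**
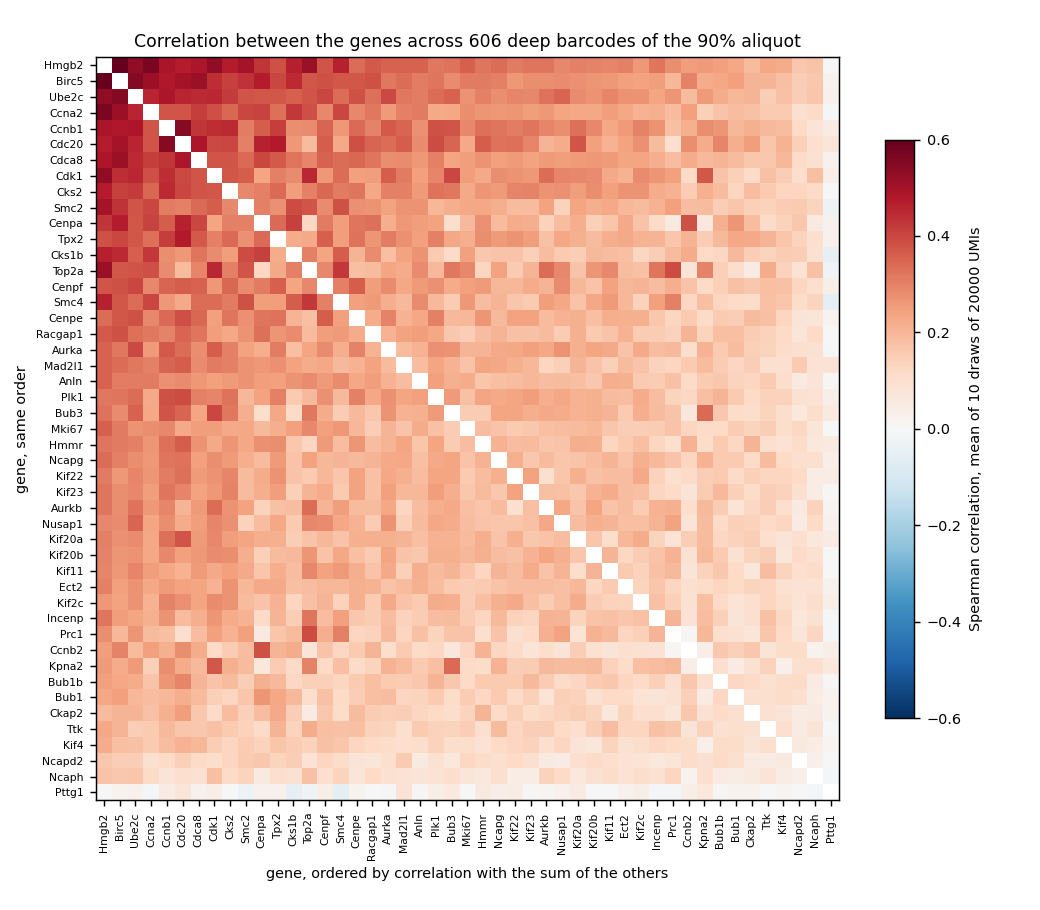
Spearman correlation between each pair of the 47 genes over the 606 deep barcodes of the 90% aliquot, as the mean of 10 draws of 20000 UMIs, with genes in both directions ordered by their correlation with the sum of the others (red above 0, blue below). The strongest block is at the upper left, from Hmgb2 to Cdk1, and the row of Pttg1 at the lower edge is near 0 throughout.

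The members were compared with the sum of the 30 replication genes in the same draws, to show which of them ran closer to S phase. The 2 sums correlated at 0.672 in the 10% aliquot, 0.597 in the 90% aliquot and 0.589 without the shared barcodes. All 47 members in the 90% aliquot and 46 in the 10% aliquot were closer to the other members than to the replication genes. Without the shared barcodes Pttg1 was not, at -0.0230 against -0.0228. The replication sum was smaller, at 1118 and 1363 CPM in deep barcodes of the 10% and 90% aliquots against 2370 and 2514 CPM. A smaller sum can lower every correlation with it, so these counts alone do not place the members by phase. The gap between the 2 correlations was widest in the 90% aliquot for Ube2c, Cenpf and Cenpe, at 0.35, 0.34 and 0.32, and was 0.29, 0.20 and 0.31 in the 10% aliquot. It was narrow in both for Top2a, at 0.06 and 0.04, and for Smc2, at 0.10 and 0.06. For Cdk1 it was 0.07 in the 90% aliquot and 0.20 in the 10% aliquot. In the 10% aliquot Cks1b was the exception, at 0.44 against 0.48. Hmgb2 was the member closest to replication, at 0.66 and 0.63, and Ckap2, which stabilises spindle microtubules, was among the farthest, at 0.09 and 0.05.

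The genes outside the list whose pattern was most like the summed members were taken by rank in the 90% aliquot. Gm4739, a processed copy of Hmgb2, came first at 0.65 (0.72 in the 10% aliquot), followed by Tuba1b at 0.62 (0.68). Rrm2, which the class rule uses, came next. Pclaf, a partner of the replication clamp, was at 0.57 (0.64), Srsf3, a splicing factor, at 0.57 (0.61) and H2afz, a histone H2A variant, at 0.57 (0.63). Tubb5, a beta-tubulin, was at 0.56 (0.60) and Ube2s, the enzyme that extends ubiquitin chains for the anaphase-promoting complex, at 0.56 (0.60). Pbk, a kinase of mitotic cells, was at 0.55 (0.60), and Ranbp1, a regulator of Ran, at 0.53 (0.53). These values span 606 barcodes (79 in the 10% aliquot).

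Some members have near-identical copies in the genome, to which short reads of the same sequence can be assigned. By alignment at 90% identity or more, 13 members had 33 copies listed in the tables, of which 29 are annotated as processed pseudogenes, 2 as unprocessed pseudogenes and 2 as protein coding. The most counted copy of Kpna2, Gm10184, is one of the coding ones, with 179 and 1090 deep UMIs in the 10% and 90% aliquots. Copies took 70.0% of the deep UMIs of Kpna2 and its copies together in the 10% aliquot and 63.2% in the 90% aliquot, 56.0% and 45.5% for Hmgb2, 49.3% and 40.4% for Cks2, and 31.6% and 29.8% for Ccnb1. The levels given above for these 4 genes count the gene's own ID alone. The rank of Cks1b above Hmgb2 also holds for own IDs alone. In deep barcodes of the 10% aliquot Hmgb2 had 1065 UMIs and its copies 1357, against 1263 and 25 for Cks1b. In the 90% aliquot these were 7324 and 6116, against 9152 and 168. Long-read UMIs of the deep barcodes were 2220 for Hmgb2 and 1618 for Cks1b. Cks2 shows why the IDs cannot be told apart over part of their length. Its coding stretch of 240 bases (gene at chr13:51645232-51650660, plus strand) is printed with the same stretch of Gm15452 (chr1:8791923-8792162, minus strand), which is identical, and of Gm12891 (chr4:122925833-122926072, plus strand), which differs at 4 bases, in capitals. Sequences are of Gencode transcripts on GRCm38.p6.
Cks2: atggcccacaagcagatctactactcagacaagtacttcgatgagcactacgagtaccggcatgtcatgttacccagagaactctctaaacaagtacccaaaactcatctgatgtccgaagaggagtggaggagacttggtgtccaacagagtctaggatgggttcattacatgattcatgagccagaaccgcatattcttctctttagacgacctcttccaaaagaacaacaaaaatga
Gm15452: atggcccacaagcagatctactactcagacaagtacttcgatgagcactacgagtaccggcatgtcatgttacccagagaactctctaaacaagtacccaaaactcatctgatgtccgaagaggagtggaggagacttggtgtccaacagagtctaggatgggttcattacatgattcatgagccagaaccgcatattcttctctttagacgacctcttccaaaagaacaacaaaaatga
Gm12891: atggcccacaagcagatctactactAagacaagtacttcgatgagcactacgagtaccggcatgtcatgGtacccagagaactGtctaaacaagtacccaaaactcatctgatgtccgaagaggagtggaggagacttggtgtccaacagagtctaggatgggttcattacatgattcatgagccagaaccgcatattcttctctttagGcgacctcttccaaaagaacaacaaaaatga
In deep barcodes of the 90% aliquot Cks2 had 4899 UMIs, Gm15452 had 1981 and Gm12891 had 1247.

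The long reads gave another picture of the same molecules. No long-read UMI of the deep barcodes was counted on any of the 33 copies. A copy absent from the long-read counts enters as 0 here, and how many were absent was not recorded. Kpna2 had 138 short-read UMIs of its own, 322 on copies and 832 long-read UMIs, so that its long-read to short-read ratio was 6.03 without and 1.81 with the copies. For Hmgb2 the ratio was 2.08 and 0.917, for Ccnb1 3.31 and 2.26, and for Cks2 0.937 and 0.475. With copies added to their gene, the summed member ratio of deep to shallow barcodes was 7.21 in the 10% aliquot and 7.36 in the 90% aliquot, and the counts of members at least 2-fold higher were again 45 and 46. Exons of 13 members also overlap another gene, mostly on the opposite strand, such as Ccna2 with Exosc9 and Cdc20 with Elovl1.

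**Figure D4:**
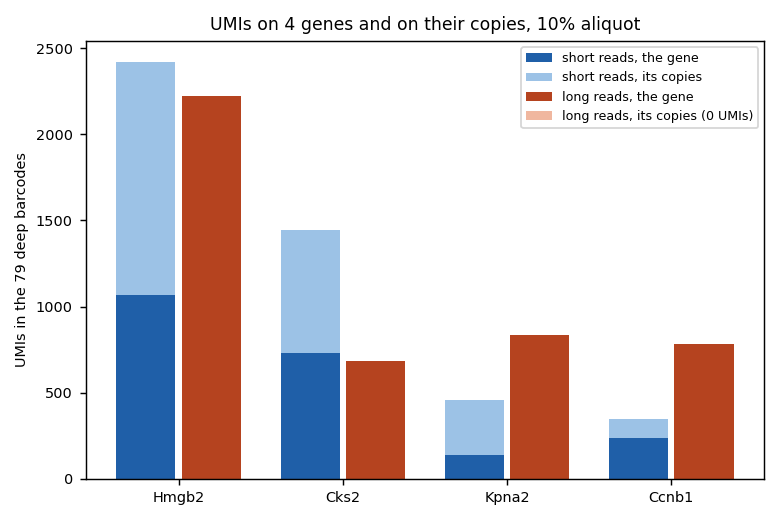
UMIs in the 79 deep barcodes of the 10% aliquot for 4 genes and their near-identical copies, from short reads (blue, with copies in light blue stacked on top) and long reads (red). Copies hold 31.6% to 70.0% of the short-read UMIs and none of the long-read UMIs.

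In the long reads of the 10% aliquot the members stood at 991 CPM in shallow and 4558 CPM in deep barcodes, from 1415 and 21095 UMIs, a ratio of 4.60 (4.36 to 4.86). At least 2-fold higher were 44 of 47 members, where 28.1% of 9539 genes passed. The long-read ratio was below the short-read ratio for 35 of the 40 members with short-read UMIs in shallow barcodes. The 7 members with 0 short-read UMIs in shallow barcodes (Aurkb, Ttk, Kif20a, Kif2c, Kif4, Nusap1 and Ncaph) all had long-read UMIs there. Pttg1 stood apart again, with 34.3 CPM in shallow and 22.9 CPM in deep barcodes, a ratio of 0.667 (0.471 to 0.956). Over deep barcodes the median long-read to short-read ratio of the members was 1.66 (range 0.869 to 6.03), beside 1.78 over 7618 genes, and 44 of 47 members were at 1 or more, where 84.5% of genes were.

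The long-read table counted 355 isoforms of the 47 genes, between 2 and 23 per gene. The most counted isoform held a median of 69.0% of a member's deep UMIs, at least 80% for 15 members and under 50% for 18. Ube2c was the most uniform, with 97.5% (96.2% to 98.4%) of 909 UMIs on 1 isoform, and Cks1b had 95.6% of 1618. Cenpa was divided, with 32.0%, 25.7% and 22.7% of 949 UMIs on 3 isoforms from the same 5′ end (chr5:30666935), of which the second ends at 30674409 and the first and last at 30674818. Ccnb2 had 76.7% of 929 UMIs on its reference isoform (chr9:70407692-70421547) and 22.1% on one with a 3′ end at 70407791. Ccna2 had 59.4% of 752 UMIs on an isoform with a 3′ end at chr3:36564865 and 25.4% on one that ends at 36565978, both from the 5′ end 36571964. Prc1 was spread over many, with 24.0%, 22.0% and 17.1% of 246 UMIs on 3 reference isoforms.

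Counted isoforms often did not span the long genes. An end was matched when it lay within 100 bases of that of any coding transcript of the gene, not only the longest. Counted isoforms had both ends matched for at least 80% of the UMIs of 22 members and for under 20% of those of 17. The share was lower for longer transcripts, with a median of 95.9% for members up to 2000 bases and 1.33% for those of 4000 to 6000 bases, beside 95.3% and 0 for all genes of those lengths (Spearman -0.53 over the 47 genes, which are not independent). Mki67, with a coding transcript of 10061 bases, had 51.2% (44.9% to 57.5%) of 254 UMIs on an isoform of its 3′ part (chr7:135689784-135695221) and 22.4% on one of its 5′ part (chr7:135700500-135716421). Cenpe (34.3% and 21.8% of 312 UMIs) and Tpx2 (31.2% and 26.4% of 292) had their leading isoforms reach the annotated 5′ end alone, and Hmmr had 44.5% of 191 UMIs on a 5′ piece and 25.7% on a 3′ piece. Some short genes also fell outside the limit. The 5′ end of the main Cks1b isoform is 105 bases inside the gene, that of Ccna2 186 bases, and the 3′ end of the main Hmgb2 isoform 1513 bases.

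**Figure D5:**
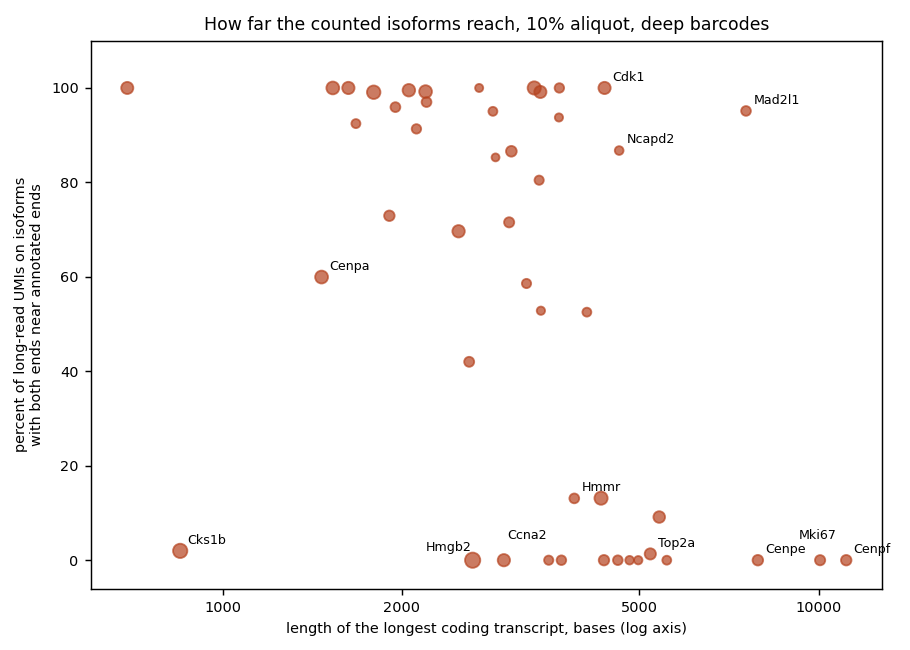
Percent of long-read UMIs in deep barcodes of the 10% aliquot that lie on isoforms with both ends within 100 bases of annotated ends, against the length of the longest coding transcript in bases (log axis), 1 point per gene, with point area growing with UMIs. Genes over 4000 bases lie mostly at or near 0, with Cdk1, Mad2l1 and Ncapd2 among those above 80%. Ends were matched to any coding transcript of the gene, and the main isoforms of Cdk1 and Mad2l1 stop short of the gene's 3′ end.

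The share of the most counted isoform was compared between shallow and deep barcodes for the 20 members with at least 20 long-read UMIs in each class. It differed by at least 20 points in 2 of the 20, where 20.7% of 5583 genes did, and the interval of the difference left out 0 in 6, where 42.6% of genes did. The members were thus not above the background in either count. Pttg1 had 22 of 49 UMIs (44.9%) on its reference isoform in shallow and 78 of 106 (73.6%) in deep barcodes, a difference of 28.7 points (12.2 to 43.7). Another Pttg1 isoform, at chr11:43420274-43426227, went the other way, from 28.6% of 49 to 7.55% of 106 UMIs. Kpna2 had 63.6% of 77 and 83.7% of 832 UMIs on its reference isoform, a difference of 20.0 points (9.81 to 31.4). Smaller differences with intervals above 0 were those of Ccnb2 (63.6% and 76.7%), Hmgb2 (60.2% and 70.2%), Bub3 (72.3% and 81.3%) and Cks1b (91.0% and 95.6%). For Ccnb1, Cks2, Birc5, Cdca8, Cdc20 and Ube2c the interval held 0, as it did for the Cenpa isoform at 40.5% of 37 and 32.0% of 949 UMIs.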

How the data were processed

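The authors' deposited gene tables hold raw counts of UMIs per gene and barcode, made with scPipe from Illumina reads of a Chromium 3′ v2 library (version not given in the sources used here) on GRCm38.p6. Cell Ranger 1.3 also stands in the submitters' processing notes. The deposited isoform counts come from nanopore reads aligned with minimap2 2.17 and grouped by FLAMES, which dropped reads that were not unique or covered under 60% of a transcript. The deposited isoform annotation lists 128 of the 355 counted member isoforms, so ends were read from isoform names and Gencode vM21.

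Each aliquot (1 sample each) was summed by class and divided by the class total of UMIs. Intervals are exact Poisson (levels), conditional binomial (ratios), Clopper-Pearson (shares) and Newcombe (differences), computed with Python 3.11.15, numpy 2.4.6, scipy 1.17.1 and pandas 2.3.3, and the code was tested on simulated data. Genes needed 20 UMIs over both classes. A count of 0 was set to 3. Depth was held equal by drawing 3000 UMIs (shares) or 20000 (correlations, 10 draws). Copies were found with blastn 2.17.0, at 90% identity over at least 200 bases (500 for coding genes). Scrublet (scanpy 1.11.5) called 2 of 269 and 2 of 2039 barcodes doublets, too few to count as working in the second table, and none were removed.

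Members and lists were chosen with earlier results of these data known. The rule for named genes allowed every member, the 10 genes most alike in the 90% aliquot, the 4 most abundant of a list, and isoforms of members with at least 100 deep UMIs whose second isoform held 20% (up to 8) or with 20 UMIs in each class. Genes in the closing section, Ube2c and Cks1b isoforms and the named overlapping genes were chosen after their values were seen. Alternatives varied the class limits, scaling, filter, doublets, immune barcodes, copies and shared barcodes.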

Additional observations from a re-analysis of the deposited data

How the results depend on the processing

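No paired analysis was possible because each aliquot is 1 sample and no test was run. The counts of members at least 2-fold higher stayed within 1.5 times of 45 and 46 under the alternatives tried, except against the barcodes of 3000 to 15000 UMIs with Rrm2, which left 3 (10% aliquot) and 17 (90% aliquot) and summed ratios of 1.17 and 1.84. With all barcodes of that depth the summed ratios were 5.17 and 5.78. In the 90% aliquot the ratio was 6.70 with shallow barcodes of 5000 to 15000 UMIs, 8.37 as a mean over barcodes, 7.36 with copies added and 7.48 without shared barcodes, the last 2 chosen after seeing the data. The median correlation moved to 0.593 and 0.493 (Pearson of log2 CPM plus 10), to 0.652 and 0.551 (counts without thinning, where depth adds to it) and to 0.523 over members seen in at least 20% of barcodes of the 10% aliquot. Reference-named isoforms exist for 27 members, and with these alone the median top share of those members was 100%. The median long-read to short-read ratio fell to 0.0970 over all 47 members, with those lacking such an isoform entered as 0.

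Of 1073 ratios of single members under these alternatives, 944 stayed within the interval of the value given, 110 moved and 19, of members at least 2-fold higher, turned below 1, all against the barcodes with Rrm2. In the 10% aliquot those were Ccna2 0.894, Aurka 0.858, Cdca8 0.677, Bub1 0.671, Mad2l1 0.858, Cdc20 0.493, Cenpa 0.907, Kif20b 0.506, Kif22 0.253, Kif23 0.361, Anln 0.645, Top2a 0.768 and Ncapd2 0.869, and in the 90% aliquot Incenp 0.694, Kif4 0.860, Ckap2 0.804, Mki67 0.808, Ncapd2 0.869 and Ncaph 0.700. The cause was not tested. Of 517 correlations 481 stayed on their side of 0.3, 36 moved and 0 turned below 0 from 0.3 or more. A member at 1 to 9 shallow UMIs has a ratio known only to its interval.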

Other observations

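The genes that ran most against the summed members over deep barcodes were taken by rank after their values were seen, and are given as values with no explanation. In the 90% aliquot Ccng1, a cyclin-family target of p53, was lowest at -0.42, with -0.20 in the 10% aliquot. Hspb1, a small heat shock protein, was at -0.41 and -0.21, and Cryab, another, at -0.38 and -0.25. Gabarap, of autophagosome formation, was at -0.41 and -0.39, and Gnas, the stimulatory G protein subunit, at -0.41 and -0.42. Fth1, the ferritin heavy chain, was at -0.40 and -0.26, and Hmox1, haem oxygenase, at -0.39 and -0.55. Ak1 was at -0.40 and -0.18, Eef1a1 at -0.38 and -0.33, and Serpine2 at -0.37 and -0.28. Among genes in the 10% aliquot Hmox1 ranked 2nd from the lowest end and Gnas 12th, while Ccng1 ranked 348th.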
